A study of Rattus norvegicus with 16 samples.

Results

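The comparison described here is the line effect in rat soleus muscle: all 8 rats of a line bred for high running capacity (HCR) against all 8 rats of a line bred for low running capacity (LCR), with training state held as a factor. The members were chosen by the line named in the sample labels, and they were 16 of the 16 arrays of the series. Each line was split into 4 sedentary and 4 trained rats, which made 4 groups with 1 array per rat, named below as HCR sedentary, HCR trained, LCR sedentary or LCR trained with a replicate number. The rats were females of generation 16 of selection from N:NIH stock, about 7 months old when killed, and breeders had been chosen on a treadmill test at 11 weeks. Trained rats ran on an inclined treadmill (25 degrees) for 8 weeks, 5 days per week and 1.5 hours per day, alternating 8 minutes at 85 to 90% of maximal oxygen uptake with 2 minutes of recovery, and their muscle was taken 48 hours after the last session. No transgene, drug or deletion was named in the labels for any group. There was 1 line of each kind, so an effect of selection and a chance difference between 2 breeding lines cannot be told apart. Expression is given as log2 values per probe set on Affymetrix rat arrays, and a difference is always HCR minus LCR on that scale, so a difference of 1 is a doubling.

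Divergent selection on treadmill running produces lines that differ in inherited endurance before any training, and the HCR and LCR lines are widely used as a contrast of intrinsic aerobic fitness. The soleus is a postural calf muscle built mostly of slow, oxidative fibres that burn fatty acids and glucose in mitochondria. Comparing the lines over both training states asks which transcripts carry a difference of line whether or not the rat has been trained.

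The arrays carried markers of the labelled tissue, of slow and of fast fibres. The slow fibre genes Myh7, Tnnt1, Tnni1 and Myl3, which encode the slow myosin heavy chain, slow troponin T, slow troponin I and the slow myosin light chain, had mean levels between percentile 99.89 and 99.99 of all probe sets. The fast myosin heavy chains Myh2 and Myh1 were at percentiles 99.88 and 98.97, and Myh4 was at 64.76. Array medians lay between 5.90 and 5.98. A pair of HCR arrays stood apart in their gene list means. HCR sedentary 2 had a mean of 1.56 log2 units above the 16-rat average over the extracellular matrix genes and -0.95 over the fatty acid oxidation genes, and HCR trained 3 had -2.24 over the slow fibre genes and 1.96 over the fast fibre genes. Because a piece of muscle holds several cell types, fewer cells of a type and less RNA per cell cannot be told apart in any value given here. An index of RNA and labelling, the 3' minus the middle beta-actin control probe set, was 1.54 ± 0.57 in HCR and 1.46 ± 0.31 in LCR (SD, n = 8, two-sided exact permutation of line within training state, p = 0.742, adjusted 0.866 over 7 measures). By state it differed by -0.47 in sedentary and by 0.63 in trained rats, where HCR (1.57 to 2.37) did not overlap LCR (1.06 to 1.36). HCR trained 2 had the highest beta-actin index (2.37). It was also highest in a GAPDH control index, 3' minus 5', at 1.67. The other HCR rats read 0.48 to 0.77 in the GAPDH index, and LCR rats 0.54 to 0.76. The part of these indices in the differences given for a single training state was not tested.

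Few transcripts separated the lines across both training states. Of 31042 probe sets, 27 passed an adjusted p of 0.05 in limma's moderated test (0.087%), 11 of them higher in HCR (0.0354%) and 16 lower (0.0515%). Their differences ranged in size from 0.24 to 1.95. By the platform's annotation 10 of them named a gene, 5 higher in HCR and 5 lower, and the other 17 carried no gene symbol. At an unadjusted p under 0.05 there were 3215 probe sets (10.4%), 1810 higher and 1405 lower, where 1552.1 would be expected if no gene differed. The 8 HCR and the 8 LCR values of a probe set did not overlap at all in 25 probe sets (0.0805%), and 11 of the 27 were among these. The interval of a difference printed below is the 95% interval of the fit.

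The named genes lower in HCR were, from the largest difference to the smallest, Acsf2, Dpy19l4, Akr1b10, Gas6 and Cdkn1b. Acsf2, a mitochondrial acyl-CoA synthetase that activates medium-chain fatty acids for oxidation, read 7.50, 7.84, 7.90 and 7.80 in the HCR sedentary rats and 8.61, 7.98, 6.78 and 8.20 in the HCR trained rats. In LCR it read 9.70, 9.43, 9.39 and 9.52 in the sedentary and 9.30, 8.66, 9.22 and 8.74 in the trained rats. Every LCR rat lay above every HCR rat, although HCR trained 1 (8.61) and LCR trained 2 (8.66) nearly met. The difference of Acsf2 was -1.42 (SE 0.20, interval -1.85 to -0.99, limma adjusted p = 0.00936), a 2.67-fold lower level in HCR, and it was -1.75 in sedentary and -1.09 in trained rats. Acsf2 was the single member of the list of acyl-CoA synthetases and thioesterases that passed; of the 25 genes of that list 18 were higher and 7 lower, with a median difference of 0.06 beside 0.03 over all 14217 genes.

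Akr1b10, an NADPH-dependent reductase of aldehydes and retinal, read between 5.52 and 6.40 in HCR with a median of 5.85, and between 6.39 and 7.17 in LCR with a median of 6.94. The lines met only where HCR trained 2 (6.40) just passed LCR trained 2 (6.39). Its difference was -0.997 (SE 0.14, limma adjusted p = 0.0082), at -1.09 in sedentary and -0.90 in trained rats. This held for probe set 1395190_at alone: the other Akr1b10 probe set, 1382034_at, gave a difference of 0.07 (SE 0.13, limma adjusted p = 0.867), so the gene's direction rests on 1 probe set of 2. With the replicate number as a block the adjusted p of 1395190_at was 0.0541 in limma.

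Dpy19l4, a membrane protein of the family whose best known members attach mannose to tryptophan, read between 5.39 and 6.82 in HCR with a median of 5.88, and between 6.51 and 7.86 in LCR with a median of 7.40. The overlap lay in the sedentary rats, where HCR sedentary 1 (6.82) and HCR sedentary 3 (6.62) were above LCR sedentary 1 (6.51), while the trained groups were far apart at 5.39 to 5.73 and 7.20 to 7.58. The difference of Dpy19l4 was -1.30 (SE 0.17, limma adjusted p = 0.00456), a 2.46-fold lower level, with -0.78 in sedentary and -1.81 in trained rats. The test of the difference between the states gave an interaction of -1.03 with an adjusted p of 0.148 in limma.

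Gas6, a secreted vitamin K-dependent ligand of the Tyro3, Axl and Mertk receptors, was also lower in HCR. It read between 8.22 and 8.90 in HCR with a median of 8.43 and between 8.69 and 9.35 in LCR with a median of 9.08. Sedentary values of the lines overlapped, and trained values did not, the HCR rats reading 8.22 to 8.47 and the LCR rats 8.99 to 9.35. The difference was -0.56 (SE 0.09, limma adjusted p = 0.0294), and both other Gas6 probe sets had the same sign without passing, at -0.31 and -0.07. Cdkn1b, which encodes the cyclin-dependent kinase inhibitor p27, read between 8.61 and 9.09 in HCR and between 9.01 and 9.61 in LCR. Apart from LCR sedentary 1 (9.01), every LCR value of Cdkn1b was above every HCR value. Its difference was -0.44 (SE 0.08, limma adjusted p = 0.0468), nearly alike at -0.40 in sedentary and -0.47 in trained rats.

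Higher in HCR was Cyp2j4, a cytochrome P450 of the 2J subfamily, enzymes that form epoxides of arachidonic acid and other polyunsaturated fatty acids. It read 7.69, 7.14, 7.45 and 8.11 in HCR sedentary and 7.54, 6.58, 7.07 and 7.18 in HCR trained rats. In LCR it read 6.34, 6.67, 6.20 and 6.33 in the sedentary and 6.23, 6.31, 6.13 and 6.20 in the trained rats. All LCR rats sat within a narrow band, and the only overlap was HCR trained 2 (6.58) below LCR sedentary 2 (6.67). The difference of Cyp2j4 was 1.04 (SE 0.14, interval 0.74 to 1.34, limma adjusted p = 0.00643), a 2.06-fold higher level in HCR, with 1.21 in sedentary and 0.88 in trained rats.

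The other genes higher in HCR differed by less. Dok5, an adaptor docked at receptor tyrosine kinases such as the insulin receptor, read between 6.84 and 7.28 in HCR and between 6.19 and 6.94 in LCR, a difference of 0.48 (SE 0.08, limma adjusted p = 0.0296). Only LCR trained 2 (6.94) reached into the HCR range. Samd11, a nuclear protein with a sterile alpha motif, differed by 0.50 (SE 0.09, limma adjusted p = 0.0468), but it read at most 5.42 in any rat, which is dimmer than the 40th percentile over all values (5.60), so the size of its difference is uncertain. Riok3, an atypical kinase of the RIO family that acts in maturation of the small ribosomal subunit, differed by 0.29 (SE 0.05, limma adjusted p = 0.0417) at 1 probe set, and its 2 other probe sets had the opposite sign at -0.17 and -0.04 without passing. Nudt16, a Nudix hydrolase that removes caps from nuclear RNA, had the smallest difference of all, 0.24 (SE 0.04, limma adjusted p = 0.0468). Its lines nonetheless did not overlap, HCR rats reading 7.74 to 7.89 and LCR rats 7.44 to 7.65.

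**Figure D1:**
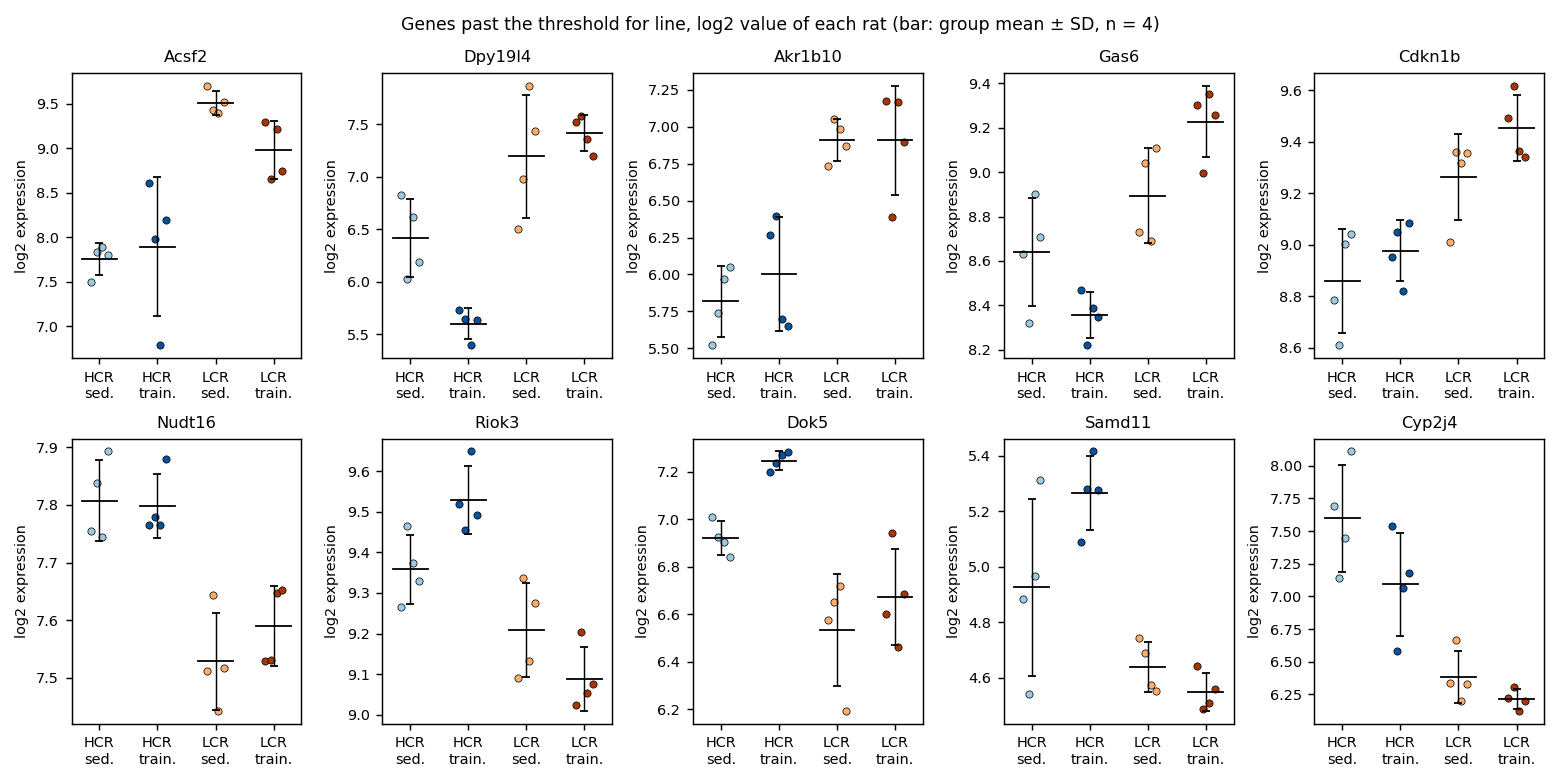
Log2 expression of the 10 named genes that passed for line, 1 point per rat in 4 groups, with bars at the group mean ± SD (n = 4); each panel has its own axis range. Acsf2, Dpy19l4, Akr1b10, Gas6 and Cdkn1b were lower in HCR, and Nudt16, Riok3, Dok5, Samd11 and Cyp2j4 were higher, with no overlap of the lines for Acsf2 and Nudt16.

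The calls differed in how much they rested on single arrays. When each of the 16 arrays was left out in turn, 15 of the 27 probe sets passed in all 16 fits, among them Acsf2, Dpy19l4, Akr1b10 and Cyp2j4. The 27 probe sets all kept their sign in these fits. Gas6 and Dok5 passed in 8 of 16 fits, and both were lost without HCR sedentary 1, HCR trained 2, HCR trained 4, LCR trained 1, LCR trained 3 or LCR trained 4. Gas6 was also lost without LCR sedentary 2 or LCR sedentary 4, and Dok5 without HCR sedentary 3 or HCR trained 1. Over the 16 fits Gas6 differed by -0.61 to -0.51, with limma adjusted p-values between 0.0165 and 0.0892, and Dok5 by 0.42 to 0.53 (0.0116 to 0.0955). Cdkn1b passed only without HCR sedentary 4, HCR trained 3 or LCR sedentary 1, at differences of -0.48 to -0.40 and limma adjusted p-values of 0.0209 to 0.139 over the 16 fits. Riok3 passed only without HCR trained 3, LCR sedentary 2 or LCR trained 2 (0.27 to 0.32, adjusted p 0.0308 to 0.130 in limma), Nudt16 only without HCR trained 3 or LCR sedentary 2 (0.23 to 0.26, adjusted p 0.0308 to 0.140), and Samd11 only without HCR sedentary 2, HCR sedentary 4, HCR trained 1 or HCR trained 3 (0.44 to 0.57, adjusted p 0.00329 to 0.118). The sizes of these 6 differences moved little, and their calls depended on which rat was left out.

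The 10 named genes lay on chromosomes 3, 4, 5, 8, 10, 16 and 18 of the RefSeq rat assembly GRCr8, and no pair of them were neighbours. The closest, Dpy19l4 and Cyp2j4 on chromosome 5, were 473 protein-coding genes apart. Promoters in the RefSeq table of GRCr8 matched 7 of the 10 genes. The 250 bases before the start of the 3 matched genes with the largest differences are shown 5′ to 3′ on the gene's strand, as the sequence context of the calls, with capitals at each match to a searched motif on either strand.
Cyp2j4, chr5:116323043-116323292, minus strand: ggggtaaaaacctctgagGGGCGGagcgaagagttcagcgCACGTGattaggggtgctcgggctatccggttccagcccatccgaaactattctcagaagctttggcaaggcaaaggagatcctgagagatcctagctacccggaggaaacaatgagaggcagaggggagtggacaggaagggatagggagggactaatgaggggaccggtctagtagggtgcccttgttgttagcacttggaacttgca
Akr1b10, chr4:64005382-64005631, plus strand: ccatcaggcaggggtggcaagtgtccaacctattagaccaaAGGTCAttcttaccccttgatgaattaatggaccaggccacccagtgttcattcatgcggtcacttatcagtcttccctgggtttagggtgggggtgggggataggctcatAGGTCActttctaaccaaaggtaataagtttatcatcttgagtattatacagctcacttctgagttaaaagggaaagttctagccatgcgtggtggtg
Gas6, chr16:82747426-82747675, plus strand: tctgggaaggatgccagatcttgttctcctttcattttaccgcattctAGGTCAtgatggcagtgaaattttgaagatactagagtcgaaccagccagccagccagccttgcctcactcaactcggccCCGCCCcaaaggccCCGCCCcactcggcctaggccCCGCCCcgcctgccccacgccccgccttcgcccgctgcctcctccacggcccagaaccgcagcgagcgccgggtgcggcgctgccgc
The 7 motifs were searched on both strands in the same 250-base window of 33469 promoters. The capitals are a GC box (GGGCGG) and an E-box (CACGTG) in Cyp2j4, a pair of nuclear receptor half-sites (AGGTCA) in Akr1b10, and 3 GC boxes and 1 half-site in Gas6. The GC box stood in 5 of the 7 matched promoters and in 30.5% of all promoters, and the half-site in 2 of 7 and in 14.1%. The core of the antioxidant response element (TGACNNNGC) stood in 3 of 7 and in 10.1%, overlapping a GC box in Dok5, the CCAAT box (CCAAT) in 2 of 7 and in 34.0%, and the E-box in 1 of 7 and in 5.59%. The TATA box (TATAAA) stood in 0 of 7 and 12.9%, and the cAMP response element (TGACGTCA) in 0 of 7 and 1.59%. These matches describe letters in a window and not sites of binding.

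The line differences of smallest p sat in transcripts that the platform's annotation did not name, although by size Acsf2 and Dpy19l4 came next after the largest of those that passed. Of the 17 called probe sets without a symbol, 6 were higher and 11 lower in HCR, 9 had no overlap of the lines, and 11 passed in all 16 fits that left out 1 array. The 3 of smallest p are given by ID. Probe set 1374583_at read between 6.28 and 6.93 in HCR with a median of 6.70 and between 7.65 and 8.08 in LCR with a median of 7.81. Its lines were separated in each training state, with a difference of -1.18 (SE 0.08, limma adjusted p = 7.83e-06), -1.25 in sedentary (adjusted p = 0.000386) and -1.11 in trained rats (adjusted p = 0.000634). Probe set 1371775_at read between 10.93 and 11.59 in HCR and between 9.72 and 10.58 in LCR, a difference of 1.15 (SE 0.09, limma adjusted p = 6.88e-05). Here too no rat crossed over, and the difference was 0.79 in sedentary and 1.51 in trained rats (interaction adjusted p = 0.118 in limma). Probe set 1389458_at read between 5.10 and 6.69 in HCR and between 6.68 and 7.13 in LCR, a difference of -0.95 (SE 0.10, limma adjusted p = 0.000651). HCR sedentary 2 (6.69) met LCR sedentary 3 (6.68), and the trained groups were far apart; in a fit of line alone, without training as a factor, its adjusted p was 0.0925 in limma.

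A further 3 probe sets were chosen after their values were seen, for the size of their differences. Probe set 1371776_at had the largest difference of those that passed, -1.95 (SE 0.26, limma adjusted p = 0.00643). It read between 5.61 and 6.69 in HCR sedentary rats, at 6.41, 6.02, 8.17 and 7.44 in HCR trained rats, and between 8.13 and 8.78 in LCR. HCR trained 3 was the one HCR rat within the LCR range. Probe set 1370428_x_at had the largest difference of all probe sets, -4.05 (SE 0.74), and did not pass (limma adjusted p = 0.0669). It read between 4.25 and 4.58 in 6 HCR rats, whereas HCR sedentary 2 (9.37) and HCR trained 3 (8.38) read near the LCR rats, at 8.47 to 10.16. Without HCR sedentary 2 the difference was -4.66 (adjusted p = 0.00176), without HCR trained 3 it was -4.54 (adjusted p = 0.0087), and without both it was -5.16 (adjusted p = 6.08e-08), all in limma. The suffix of its ID marks a probe set some of whose probes can match more than 1 transcript. Probe set 1388202_at read between 4.56 and 5.77 in HCR and between 5.37 and 8.49 in LCR, a difference of -2.48 (SE 0.45, limma adjusted p = 0.0669), and it passed when LCR sedentary 3, the lowest LCR rat (5.37), was left out (-2.81, limma adjusted p = 0.00966).

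**Figure D2:**
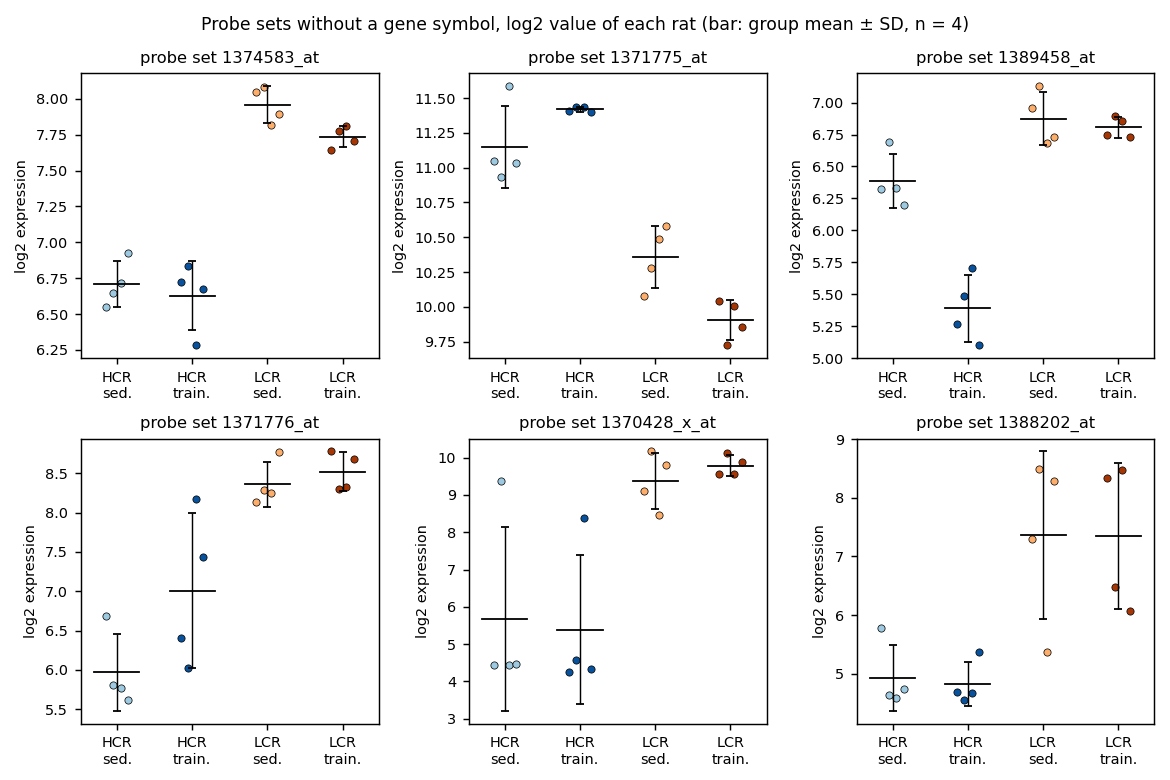
Log2 expression of 6 probe sets without a gene symbol, 1 point per rat in 4 groups, with bars at the group mean ± SD (n = 4); each panel has its own axis range. The lines do not overlap for 1374583_at and 1371775_at, whereas for 1370428_x_at HCR sedentary 2 (9.37) and HCR trained 3 (8.38) sit with the LCR rats.

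Several named genes fell just short of the threshold and are given as values. Among those higher in HCR, Cbs, which makes cystathionine from homocysteine and serine, differed by 0.32 (SE 0.06, limma adjusted p = 0.0534), Med9, a Mediator subunit, by 0.30 (adjusted p = 0.0715) and Casp4, an inflammatory caspase, by 0.40 (adjusted p = 0.0877). Pierce1, a protein of ciliary microtubules, differed by 1.05 (SE 0.20, limma adjusted p = 0.0733), with 6.22 to 7.63 in HCR and 5.70 to 5.996 in LCR. The lines did not overlap for Pierce1, and it passed without HCR trained 3 (1.18, limma adjusted p = 0.0122). Myh4, the fastest myosin heavy chain, differed by 3.07 (SE 0.61, limma adjusted p = 0.0877), and nearly all of it lay in the trained rats. It read 11.08, 8.43, 13.57 and 9.98 in HCR trained rats and 4.84 to 5.80 in LCR trained rats, but 4.76, 8.03, 4.88 and 5.05 in HCR sedentary and 4.83 to 5.13 in LCR sedentary rats. Myh4 passed without HCR trained 3 (2.60, limma adjusted p = 0.0472) and without HCR trained 2 (3.46, adjusted p = 0.0400). Its interaction between line and training was 4.83 (unadjusted p = 0.00139, adjusted 0.110 in limma).

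Among those lower in HCR, Tenm2, a teneurin, differed by -0.67 (SE 0.12, limma adjusted p = 0.0669), B4galt1, a galactosyltransferase, by -0.24 (adjusted p = 0.0679), Crebl2, a protein related to CREB, by -0.65 (adjusted p = 0.0687) and Emc2, a subunit of the endoplasmic reticulum membrane complex, by -0.30 (adjusted p = 0.0715). For B4galt1 every HCR rat (6.69 to 7.00) was below every LCR rat (7.03 to 7.25). RT1-Ba, an alpha chain of the MHC class II molecule that presents peptides to helper T cells, differed by -1.27 (SE 0.24, limma adjusted p = 0.0733). Its HCR values were tight at 8.11 to 8.55, while LCR split: LCR sedentary 2 (8.02) and LCR sedentary 4 (8.18) read as HCR did and the other 6 LCR rats read 9.70 to 10.87. RT1-Ba passed without LCR sedentary 2 (-1.42, limma adjusted p = 0.0289) and without LCR sedentary 4 (-1.39, adjusted p = 0.0466), and of its 3 other probe sets 1 had the same sign and 1 the opposite sign at an unadjusted p under 0.05. RT1-CE10, an MHC class I gene, differed by -1.60 (SE 0.32, limma adjusted p = 0.0905), with 6.23 to 7.06 in HCR rats against 6.75 to 9.14 in LCR rats, and passed without LCR sedentary 3 (-1.85, adjusted p = 0.013), the LCR rat at 6.75. Genes within a class of the RT1 complex include close copies, so which copy a probe set reads is uncertain.

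Pooling weights sedentary and trained rats equally, and across all probe sets the lines did not differ alike in both. The sedentary and trained differences share no arrays, but their p-values share 1 estimate of the spread taken from all 16 arrays. A count of calls in 1 state can therefore change when an array of the other state is left out. Over 31042 probe sets the 2 differences had the same sign in 44.3%, with a Pearson correlation of -0.22 and a Spearman correlation of -0.24. Probe sets are not independent of one another, and whether all 16 arrays were normalized together is not stated. The correlation leaned on single arrays: Pearson's value was -0.37 without HCR sedentary 4, -0.04 without HCR sedentary 2 and -0.01 without LCR sedentary 1. The median size of a difference was 0.06 pooled, 0.09 in sedentary and 0.11 in trained rats. In limma 3 probe sets passed between sedentary rats (0.00966%) and 116 between trained rats (0.374%), 61 higher and 55 lower in HCR. Leaving out 1 array gave 1 to 6 between sedentary rats and, between trained rats, 9 (without LCR trained 1 or LCR trained 3) to 651 (without HCR sedentary 2), and leaving out both HCR sedentary 2 and HCR trained 3 gave 10 and 1315. The test of the interaction called 0 in limma, with 5673 at an unadjusted p under 0.05. It called 185 without HCR sedentary 4, 24 without HCR trained 3 and 22 without HCR sedentary 2 and HCR trained 3, and 0 or 1 without any other array. Of the 116 probe sets called in trained rats, 44 had the same sign in sedentary rats and 72 the opposite sign, and 15 had the same sign with an unadjusted p under 0.05 there. Over all 31042 probe sets 2598 had an unadjusted p under 0.05 in sedentary rats, in either direction.

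Within the 27 called for line, the sign was the same in sedentary and trained rats for 27, which the pooled test favours by its construction. An unadjusted p under 0.05 in both limma comparisons was reached by 24 of them, which the pooled test also favours. Over all 31042 probe sets 181 reached it with equal signs and 438 with opposite signs. The difference was larger in trained rats for 16 of the 27. An unadjusted interaction p under 0.05 was reached by 10, beside 5673 of all 31042, and none of the 10 passed after adjustment. Taken by state, 3 passed in sedentary and 16 in trained rats, and 9 passed in neither and were called only when all 16 rats were pooled. Among the latter were Acsf2, at adjusted p-values of 0.112 in sedentary and 0.0771 in trained rats, Cyp2j4 (0.112 and 0.0599) and Akr1b10 (0.185 and 0.0563), all in limma. Dpy19l4, Gas6, Dok5, Riok3 and Samd11 each passed in trained rats and not in sedentary rats. Their limma interactions had adjusted p-values between 0.127 (Gas6) and 0.541 (Dok5), so a difference between the states was not shown for these genes.

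**Figure D3:**
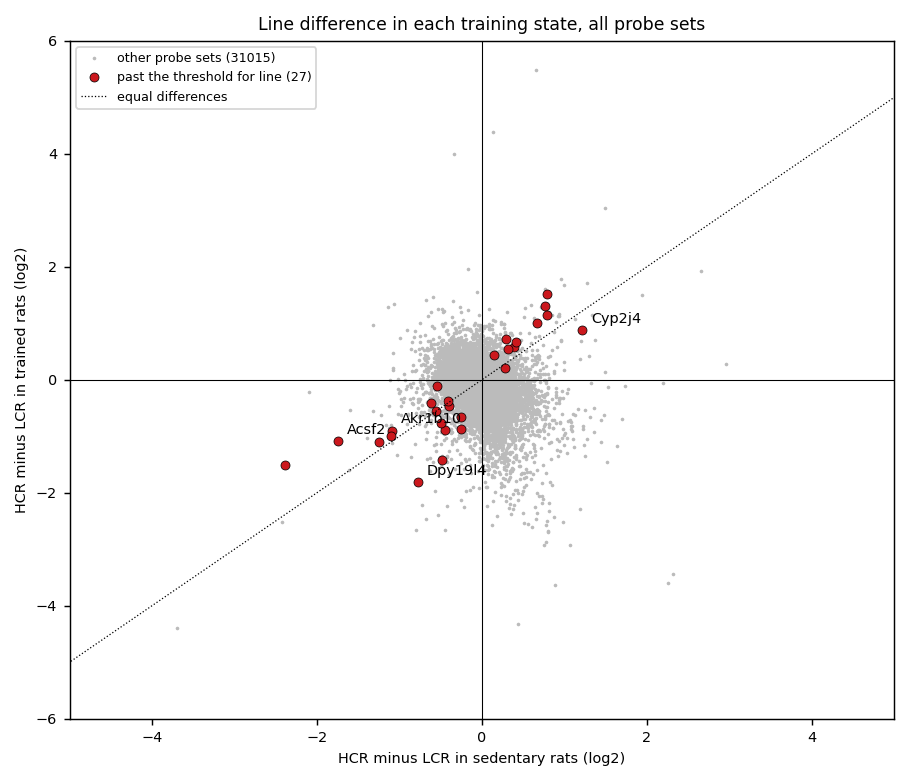
HCR minus LCR (log2) in sedentary rats on the horizontal axis and in trained rats on the vertical axis, 1 point per probe set, with the 27 called for line in red and equal differences on the dotted line. The red points lie in the 2 quadrants of equal sign, Dpy19l4 shows the larger difference in trained rats (-1.81 against -0.78) and Acsf2 in sedentary rats (-1.75 against -1.09).

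Gene groups were described by the brightest probe set of each gene, without a test, beside all 14217 genes, of which 8696 were higher and 5521 lower at a median of 0.03. By that choice 8 genes passed (0.0563%). In 32 lists of pathways and cell type markers the only member that passed was Acsf2.

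Heat shock proteins and chaperones, which fold proteins and buffer stress, were the most one-sided. Of 26 genes 24 were lower in HCR, at a median of -0.14, and 5 were lower at an unadjusted p under 0.05 (19.2%, beside 9.61% of all genes in either direction and 523 of the 14217 genes lower), with 0 past the threshold. The median stayed between -0.16 and -0.10 when any 1 array was left out, the smallest size being without HCR trained 3. The shift lay in the trained rats: 25 of 26 genes were lower there at a median of -0.26 (-0.17 without HCR trained 3), against 13 of 26 in sedentary rats at a median of 0.00. Over all 14217 genes 9142 were higher in HCR in trained rats, at a median of 0.054. The mean of the heat shock list ran from -0.51 to -0.04 in HCR trained rats and from 0.01 to 0.16 in LCR trained rats, so these groups did not overlap. The sedentary groups did overlap, at -0.02 to 0.14 and 0.03 to 0.12. This separation of the trained groups was not particular to heat shock genes, as the means of the MHC, fast fibre and mitochondrial ribosome lists did not overlap there either. The beta-actin index did not overlap between the trained groups either, as given above. With that index as a covariate the pooled median was -0.13, and its part in the trained difference was not tested. Hspa2, a chaperone of heat shock protein family A, differed by -0.86 (SE 0.18, limma adjusted p = 0.122), with 5.20 to 6.79 in HCR and 6.88 to 7.47 in LCR. No rat overlapped for Hspa2, and it passed without HCR trained 3, its lowest value (-0.71, limma adjusted p = 0.0435). Hsf2, a heat shock transcription factor, differed by -0.22 (SE 0.07, limma adjusted p = 0.335).

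Slow and fast fibre lists had medians of opposite sign, and both medians rested largely on 1 rat. Slow fibre genes were lower in HCR in 15 of 17 at a median of -0.28, and 15 of 19 fast fibre genes were higher, with a median of 0.16. Without HCR trained 3 the medians were 0.015 and 0.053. The fast fibre median was -0.011 in sedentary rats and 0.27 in trained rats, and the latter was 0.020 without HCR trained 3. By the mean of the fast fibre list, however, every HCR trained rat (0.69, 0.43, 1.96 and 0.20) lay above every LCR trained rat (-0.38 to 0.06). The sedentary groups overlapped in that mean. Tpm3, the slow tropomyosin, differed by -0.38 (SE 0.36, limma adjusted p = 0.715) at its brightest probe set, and by 0.011 without that rat. Another of its probe sets, the one of smallest p, gave -1.09 (SE 0.34, limma adjusted p = 0.314), and still -0.86 without HCR trained 3. Atp2a2, the calcium pump of slow fibres, differed by -0.32 at its brightest probe set (limma adjusted p = 0.658) and by -0.76 at that of smallest p (adjusted p = 0.435), which were -0.048 and -0.60 without HCR trained 3. Pvalb, the calcium buffer parvalbumin of fast fibres, differed by 2.26 (SE 0.64, limma adjusted p = 0.275) and by 1.61 without that rat. Pvalb read 7.82 to 13.80 in HCR trained rats and 5.15 to 7.05 in HCR sedentary rats, and 5.20 to 6.14 in LCR. HCR trained 3 was the highest of all at 13.80, and without it and HCR sedentary 2 Pvalb differed by 1.40 and passed (limma adjusted p = 0.0122).

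Markers of the matrix and of leukocytes had opposite signs in the 2 training states. Extracellular matrix genes, mostly collagens and proteoglycans of fibroblasts, had a pooled median of -0.02 over 37 genes, made of 0.64 in sedentary rats (35 higher in HCR) and -0.66 in trained rats (35 lower). Macrophage and leukocyte markers had 0.06 over 27 genes, made of 0.54 in sedentary (27 higher) and -0.38 in trained rats. Without HCR sedentary 2 the sedentary medians were 0.24 for the matrix and 0.16 for the leukocyte markers, and without LCR trained 2 the trained median of the matrix was -0.34. Without HCR sedentary 2 the pooled medians were -0.21 for the matrix and -0.11 for the leukocyte markers. Satellite cell markers had 0.25 in sedentary rats (0.11 without HCR sedentary 2) and -0.28 in trained rats. Schwann cell, blood cell and smooth muscle markers had medians of the same sign in both states, with pooled values of 0.054, 0.067 and 0.0050. That likeness leaned on single arrays. Leaving out 1 array gave sedentary medians of -0.026 to 0.080 for Schwann cell and -0.076 to 0.037 for blood cell markers. For smooth muscle the trained median ran from -0.14 to 0.12. Of 9 blood cell markers 5 were higher, but the 2 at an unadjusted p under 0.05 in limma were lower. Adipocyte markers, which report fat cells between the fibres, were higher in HCR in 14 of 18 at a median of 0.17, made of -0.24 in sedentary and 0.60 in trained rats. Their mean spread most within the HCR trained group, with 1.18, -0.25, -0.87 and 1.08 against -0.54 to 0.10 in LCR trained rats, and the pooled median ran from 0.055 without HCR trained 4 to 0.38 without HCR trained 3. The sedentary median was -0.045 without HCR sedentary 2, and the trained median was 0.29 without HCR trained 4. The parts that these cell types played in the calls above were not tested. MHC genes showed no common direction when pooled, at a median of 0.01 over 27 genes. Of them 8 had an unadjusted p under 0.05 (29.6%, beside 9.61% of all genes), 2 higher and 6 lower. By state the MHC median was 0.13 in sedentary rats (-0.0010 without LCR sedentary 3) and -0.23 in trained rats (-0.086 without HCR trained 3). The mean of the MHC list ran from -0.27 to -0.19 in HCR trained rats and from 0.03 to 0.24 in LCR trained rats, without overlap.

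Pathways of energy supply differed little by line. Fatty acid oxidation genes had a pooled median of -0.07 over 26 genes, with 0 at an unadjusted p under 0.05; it was -0.19 in sedentary rats, where 25 of 26 were lower, and 0.09 in trained rats. Without HCR sedentary 2 the sedentary median was 0.06 and the pooled median 0.06, so the direction rested on that rat. Respiratory chain and ATP synthase genes were lower in 53 of 80 at a median of -0.02, which was 0.03 without HCR sedentary 2, and the citric acid cycle was lower in 15 of 23 at -0.06, which was 0.01 without that rat. Mitochondrial ribosome genes had a median of 0.01, made of -0.12 in sedentary and 0.15 in trained rats, and cytosolic ribosome genes 0.01, made of 0.11 and -0.10. The 2 kinds of ribosome thus had opposite signs in each training state, at -0.044 and 0.042 in sedentary rats without HCR sedentary 2, and the trained median of the cytosolic ribosome was -0.040 without LCR trained 2. Amino acid breakdown genes were lower in 22 of 30 at a median of -0.06, with -0.23 in sedentary (-0.075 without HCR sedentary 2) and 0.045 in trained rats. Cholesterol synthesis genes were higher in 13 of 19 at 0.05, and in 10 of 19 at 0.030 without HCR sedentary 2 and HCR trained 3. In limma 4 of them were higher and 1 lower at an unadjusted p under 0.05 (26.3%, beside 9.61% of all genes). Of this list Sc5d, the lathosterol oxidase, differed by 0.42 (SE 0.10, limma adjusted p = 0.179) and Pmvk, phosphomevalonate kinase, by -0.39 (SE 0.09, adjusted p = 0.198).

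**Figure D4:**
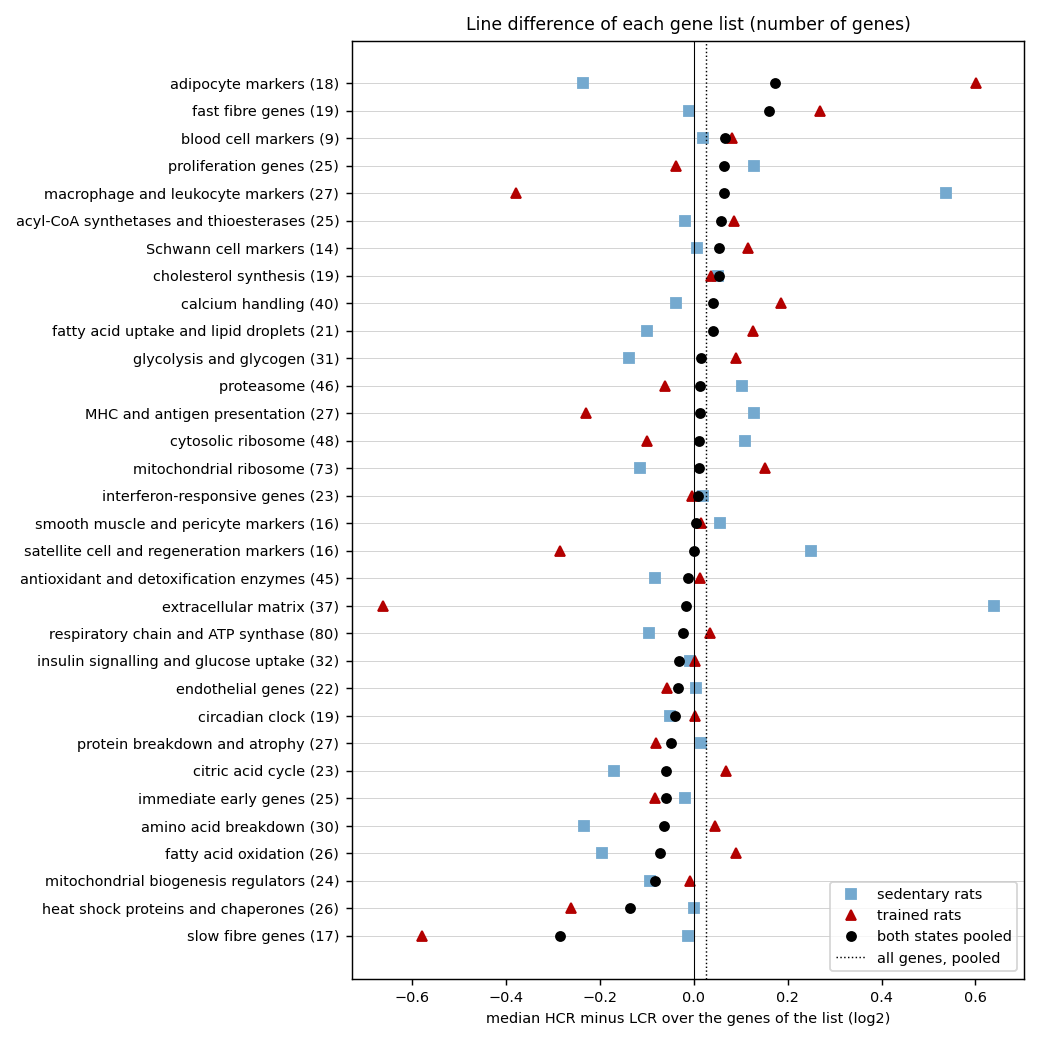
Median HCR minus LCR (log2) over the genes of each list in sedentary rats (squares), trained rats (triangles) and both pooled (circles), with the number of genes in brackets and the pooled median of all genes as a dotted line at 0.03. Pooled medians lie near 0 for most lists, and the extracellular matrix and macrophage lists have opposite signs in the 2 training states.

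**Figure D5:**
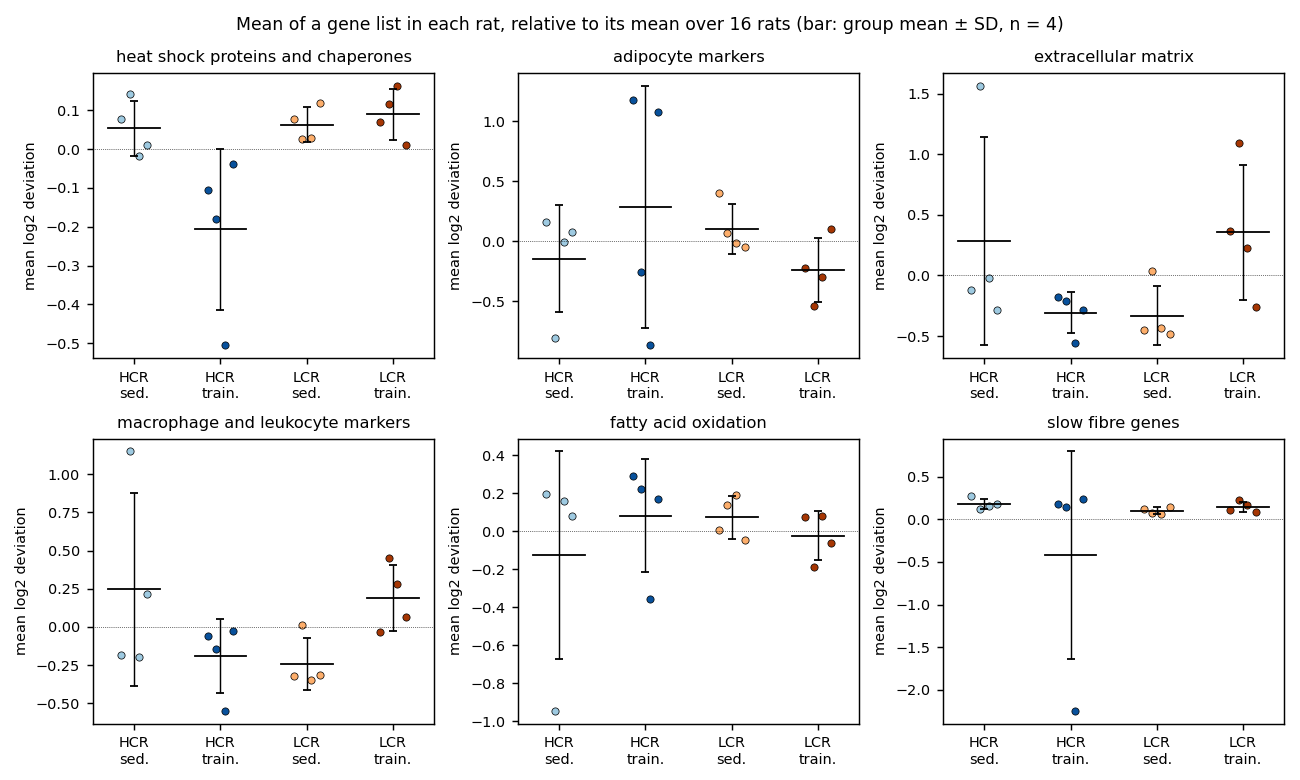
Mean of 6 gene lists in each rat as a log2 deviation from the list's mean over 16 rats, with bars at the group mean ± SD (n = 4); each panel has its own axis range. The heat shock means of HCR trained rats (-0.51 to -0.04) lie below those of LCR trained rats, HCR sedentary 2 is highest for the extracellular matrix (1.56), and HCR trained 3 is lowest for the slow fibre genes (-2.24).

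In a list of 18 key genes, mostly ones often studied in endurance, only Acsf2 passed for line. The list was chosen with earlier results of these data known, so its call is no independent support. Ppara and Mstn of this list were too dim to be named. Cox7a1, a cytochrome c oxidase subunit in its muscle form, differed by 0.23 (SE 0.15, interval -0.09 to 0.56, limma adjusted p = 0.600). Ppargc1a, the coactivator of mitochondrial biogenesis, differed by -0.18 (SE 0.14, interval -0.49 to 0.13, adjusted p = 0.666), and Tfam, the mitochondrial transcription factor, by -0.05 (SE 0.04, adjusted p = 0.709). For transport of fuel, Slc2a4, the insulin-responsive glucose transporter, differed by -0.42 (SE 0.20, limma adjusted p = 0.480) and Cd36, a fatty acid transporter, by -0.39 (SE 0.19, adjusted p = 0.501). Lpl, lipoprotein lipase, differed by -0.38 (SE 0.28, limma adjusted p = 0.638), but by 0.02 without HCR sedentary 2 and HCR trained 3. Vegfa, the angiogenic growth factor, differed by -0.39 (SE 0.20, limma adjusted p = 0.508), with 0.16 in sedentary and -0.93 in trained rats, but its brightest probe set differed by 0.031 (adjusted p = 0.921). Pdk4, which inhibits pyruvate dehydrogenase, differed by -0.62 (SE 0.38, limma adjusted p = 0.572) at 1 probe set and by 0.36 (SE 0.41, adjusted p = 0.765) at its brightest, so its direction is uncertain. Ucp3, the muscle uncoupling protein, differed by 0.59 (SE 0.34, limma adjusted p = 0.549).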

How the data were processed

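The authors' deposited log2 values per probe set were used as given. The submitters' processing notes list RMA, which corrects background, normalizes by quantiles and summarises probe sets, and also limma; versions are not given in the sources used here. Quantile normalization takes out any shift that every probe set shares, so each difference is read against the rest of the array. Precision is limited by the number of arrays.

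Values of 31042 probe sets, without 57 controls, were fitted in limma 3.58.1 (R 4.3.3) with 4 group means (12 residual degrees of freedom). The contrast averaged HCR minus LCR over both training states, with Benjamini-Hochberg adjustment over all probe sets. P-values rest on the spread between rats within groups. The platform annotation gave 1 symbol for 20826 probe sets, several for 436 and none for 9780.

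Genes named were those that passed with a brighter-line mean at or above the 40th percentile (1 probe set per gene, of smallest p), the genes of smallest p up to 10 per direction, up to 2 per list and key genes. Others are said to be chosen after their values were seen. The result for 1 gene that the rule names is not reported here. The comparison, lists and alternatives were chosen with earlier results of these data known.

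Replicate numbers were not used to pair the rats in the main fit: 8 of 24 same-number pairs had deviations correlated over 0.1. The correlations of these pairs ran from -0.48 to 0.57 with a mean of 0.021, and 7 of the 16 arrays correlated best with an array of their own number. The labels do not say what the number marks, so a batch shared by number is not excluded. The fit was tested on simulated data.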

Additional observations from a re-analysis of the deposited data

Results flagged for a closer look

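In each group of 4 rats the highest and lowest values of the named genes, the singled-out probe sets, the gene list means and the array measures were compared with the others by Dixon's criterion at its 95% level. It marked 45 of 472 groups, and 13 of the marks fell on HCR sedentary 2 and 7 on HCR trained 3. Chance marks about 1 in 20 of independent groups. These items were not independent, and some probe sets were chosen after their values were seen, so the count is not a test of an excess. Of the genes and list means checked, 0 had effects of opposite direction in every rat of the 2 training states.

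On HCR sedentary 2 the marked values were Myh4 at 8.03 (other rats of the group 4.76 to 5.05), Abcd3, a peroxisomal transporter, at 7.40, Esrra, a nuclear receptor of oxidative genes, at 8.93, Actn3, the fast fibre alpha-actinin, at 9.02, and probe set 1370428_x_at at 9.37. The marked list means of this rat were -0.95 for fatty acid oxidation, -0.71 for fatty acid uptake, -0.50 for the citric acid cycle, -0.55 for amino acid breakdown, -0.81 for adipocyte markers, 1.56 for the extracellular matrix, 0.74 for satellite cell markers and 0.58 for proliferation genes. On HCR trained 3 they were Lpl at 10.52 (others 12.78 to 12.81), Hif1a at 8.30, Tenm2 at 5.13, probe set 1370428_x_at at 8.38, the second component at -63.77, the slow fibre mean at -2.24 and the satellite cell mean at -0.72.

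In the other HCR sedentary rats the marked values were Hsf2 at 8.41 and 1388202_at at 5.77 on HCR sedentary 1, Fam111a at 4.74 on HCR sedentary 3, and Myh7 at 11.05, Vegfa at 7.27, Prkaa2 at 9.42, the GAPDH control index at 0.74 and the Schwann cell mean at 0.091 on HCR sedentary 4. In the other HCR trained rats they were B4galt1 at 6.69 on HCR trained 1, Fam111a at 4.79 and the proteasome mean at -0.17 on HCR trained 2, and Nudt16 at 7.88 and 1388202_at at 5.38 on HCR trained 4.

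In LCR sedentary rats they were Cdkn1b at 9.01 and Tfam at 9.75 on LCR sedentary 1, the extracellular matrix mean at 0.035 and the macrophage mean at 0.010 on LCR sedentary 2, and Ucp3 at 8.51 and the fatty acid uptake mean at 0.25 on LCR sedentary 3. In LCR trained rats they were Pvalb at 6.10 on LCR trained 1, and Ppargc1a at 7.97, Esrra at 9.37, Retsat at 10.11, the beta-actin control index at 1.06 and the cholesterol synthesis mean at 0.050 on LCR trained 2.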

How the results depend on the processing

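The count of 27 probe sets was 338 with array weights (192 higher, 146 lower), 103 without HCR sedentary 2 and HCR trained 3 (65 higher, 38 lower; 25 shared with the 27), 47 after adding the beta-actin index to the model (18 higher, 29 lower), 17 with the replicate number as a block (16 shared), and 14 for changes of at least 1.5-fold. Leaving out 1 array gave 15 (without LCR trained 1) to 69 (without HCR trained 3), and 16 or 17 without HCR sedentary 1, HCR trained 2, HCR trained 4 or LCR trained 3. It was 29 after quantile normalization (13 higher, 16 lower), 21 after median centring, 23 with trended variances and robust moderation, 22 once dim probe sets were dropped, 22 in an additive model, 22 for line alone and 20 with the GAPDH index. Every called probe set kept its sign in each of these fits that tested it. The cause of these changes was not tested.

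Among named genes, none of which passed here, the sign turned for Ppard (0.00247 with array weights, 0.042 without both arrays, -0.092 to 0.032 leaving out 1 array, the positive value without HCR sedentary 2), Lpl (0.019 without both) and Hif1a (0.041 with array weights, 0.050 without both, -0.11 to 0.079 leaving out 1 array, the positive values being 0.079 without HCR trained 3 and 0.016 without LCR trained 2). The replicate block ended the calls of Akr1b10, Gas6, Dok5, Riok3, Nudt16, Cdkn1b and Samd11. The median of all probe sets was 0.0226, and 0.0157 after quantile normalization and 0.0161 after median centring. Each list median moved by less than the spread of the list's mean between rats within groups. That spread includes the outlying arrays and is not the error of a line difference, so moves within it can turn the sign. The slow fibre median went from -0.28 to 0.015 without HCR trained 3, and that of fatty acid oxidation from -0.07 to 0.06 without HCR sedentary 2.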

Other observations

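Some transcripts read far higher in some rats than in others of the same line, with a wide gap between. A search made after the values were seen took probe sets with a gap of over 2 log2 units between neighbouring values and at least 2 rats on each side. It found 12, of which 0 passed for line. In 5 of them all LCR rats lay on 1 side while HCR rats were split, in 1 all HCR rats lay on 1 side while LCR rats were split, and in 6 both lines were split. Fam111a, a nuclear protease that acts in DNA replication and antiviral defence, read 8.64 to 9.52 in 6 HCR rats and 4.74 and 4.79 in the other 2, and it read 8.44 and 8.60 in 2 LCR rats and 4.51 to 4.86 in the other 6 (difference 2.27, limma adjusted p = 0.399). Ccn1, a matrix-associated signalling protein, read 7.39 to 9.01 in all HCR rats, but 5.20 in LCR sedentary 1 and 5.16 in LCR trained 3 against 8.16 to 9.63 in the other LCR rats. Ephx1, the microsomal epoxide hydrolase, read 8.82 to 9.47 in 14 rats and 6.33 and 6.77 in HCR sedentary 2 and HCR trained 3, the same rats that read high for 1370428_x_at.

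A further 4 genes had large line differences that did not pass, and were chosen after their values were seen. Acad9, an acyl-CoA dehydrogenase needed for assembly of complex I, differed by 1.72 (SE 0.39, limma adjusted p = 0.158), with 10.14 to 11.50 in 7 HCR rats, 8.32 in HCR trained 3 and 8.22 to 9.66 in LCR. It passed without HCR trained 3 (2.08, adjusted p = 0.00137 in limma). Retsat, which saturates retinol, differed by 1.34 (SE 0.28, limma adjusted p = 0.114) and passed without HCR sedentary 2 (1.54, adjusted p = 0.0193). Clec3b, the plasminogen-binding protein tetranectin, differed by -1.74 (SE 0.44, limma adjusted p = 0.217) and passed without HCR trained 3 (-2.03, adjusted p = 0.0472). Actn3 differed by 1.83 (SE 0.65, limma adjusted p = 0.383), with -0.34 in sedentary and 3.99 in trained rats.

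Of the 5 leading components of all probe sets, the fifth, with 4.71% of the variance, separated the lines most, from -7.79 to 20.15 over HCR rats and from -15.42 to -1.76 over LCR rats (two-sided exact permutation within training state, p = 0.00286, adjusted 0.02 over 7 measures). The first, with 32.0%, had p = 0.216 by the same exact permutation. Its line difference was 16.2 in sedentary and -48.5 in trained rats, so the pooled value averaged opposite signs. Among trained rats HCR (-43.91 to -13.65) did not overlap LCR (6.77 to 35.96) on it. The states were not tested apart.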
